A study of Mus musculus with 18 samples.

Results

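A set of 9 genes of striatal dopamine and retinoid signalling was described in nuclei of the embryonic mouse forebrain: Drd1, Drd2, Ppp1r1b, Pde10a, Rgs9, Tac1, Penk, Rarb and Rxrg. They were chosen by symbol, and all 9 were found among the 55335 genes of the deposited gene table. The study profiled single nuclei of E14 (embryonic day 14) forebrains from the Myt1l S710fsX frameshift line on a C57BL/6J background, with tissue banked from 3 litters. The 3 groups were WT (no mutant allele), Het (heterozygous) and KO (both alleles mutant), with 3 animals each, no treatment, and every animal profiled in 2 runs, giving 18 libraries. Myt1l encodes a transcription factor of postmitotic neurons, and the question asked here was how these genes were distributed over inhibitory subtypes against excitatory nuclei and whether their levels differed between genotypes.

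Projection neurons of the striatum are inhibitory and fall into a direct-pathway type, known for the receptor Drd1 and the peptide gene Tac1, and an indirect-pathway type, known for Drd2 and Penk. Dopamine acts on cAMP through these receptors, which couple to stimulatory (Drd1) or inhibitory (Drd2) G proteins, and Ppp1r1b, Pde10a and Rgs9 act downstream of them. Retinoic acid acts through heterodimers of RAR and RXR nuclear receptors, and Rarb and Rxrg are the members of these families for which the striatum is known.

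The libraries held 261143 barcodes, of which 194387 nuclei were kept (14796 to 26074 per animal, 42808885 to 73802743 UMIs per animal over all kept nuclei), with a median of 2520 UMIs per nucleus. Clustering gave 28 clusters, and the members were left out of the genes used for it. Clusters were named from marker lists that held no member. Inhibitory neuron-like clusters held 53954 nuclei and excitatory neuron-like clusters 56159, while 15.8% of nuclei stayed unnamed. A direct-pathway type-like cluster (10039 nuclei, at least 558 per animal) had 7 of 9 markers of its list, with Ebf1 and Isl1 among its leading genes. Ikzf1, a marker on the indirect-pathway list, was also among its leading genes. An indirect-pathway type-like cluster (3239 nuclei, at least 166 per animal) had 5 of 8, with Six3 among its leading genes. The other 40676 inhibitory nuclei lay in 7 clusters. Names rebuilt in this way may differ from those of the study. Since clusters were formed from the expression of the same nuclei, an adjusted p between classes states how repeatable a difference was over 9 animals.

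Some properties of the libraries bear on every result. Levels are given as CPM, the UMIs of a gene scaled to all UMIs of a class in an animal. In run 1 the genotype tag of all 9 libraries reads WT although their titles give WT, Het and KO, and titles were used. In run 2 tag and title match, so counts of genotype calls are also given for run 2 alone. Of the barcodes, 1875 occurred in more than 1 library and 1719 in more than 1 animal. By Xist against summed Y-linked genes, WT 3 (374 against 5.70 CPM) was female. The other 8 animals were male, with Xist at 0.398 to 0.701 CPM and Y-linked genes at 522 to 611 CPM. All Het and KO animals were thus male and WT was mixed, so sex was not balanced between genotypes. The study's methods state mixed sexes for each genotype. Myt1l RNA in the excitatory class was 1949, 2230 and 2125 CPM in WT, 2238, 2487 and 2427 in Het and 2562, 2858 and 2621 in KO, so every KO animal lay above every WT animal (log2 difference 0.37, SE 0.08, edgeR adjusted p = 0.0444), a call lost when WT 1, WT 3, Het 3, KO 1 or KO 2 was left out. Whether the mutant transcript is kept or degraded was not tested, so this level does not check the labels.

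Rarb has a promoter with a known retinoic acid response element, and its sequence is shown because Rarb and its partner Rxrg were high in both striatal types. The RefSeq window of 250 bases before to 50 after the start lies at chr14:16575427-16575726 on the minus strand of GRCm38.p6. Capitals mark the direct repeat with a spacer of 5 bases (DR5), whose first base is 53 bases before the start.
Rarb promoter: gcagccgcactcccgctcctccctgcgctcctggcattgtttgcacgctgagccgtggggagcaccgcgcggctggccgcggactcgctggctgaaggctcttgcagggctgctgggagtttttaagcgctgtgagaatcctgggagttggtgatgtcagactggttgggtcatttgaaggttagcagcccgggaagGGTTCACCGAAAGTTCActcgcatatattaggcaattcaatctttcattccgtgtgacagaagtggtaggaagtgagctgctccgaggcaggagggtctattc
A DR5 pattern was searched on both strands, with half-sites of A or G, then G, then G or T, then TCA, and any spacer of 5 bases. This pattern, and not the exact Rarb sequence, occurred in 32 of 32851 RefSeq promoters of this length (0.0974%). Promoters were found for 7 of the 9 genes (10 windows for Drd1, Drd2, Tac1, Rgs9, Pde10a, Rarb and Rxrg), and of these 10 the Rarb window alone held it. Penk and Ppp1r1b were not matched. This match is a description of the letters in the window. Elements of other spacing, or outside these windows, were not searched for, so nothing is said on whether the other genes have them.

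In the gene annotation of the same build (GENCODE vM21), Rarb spans chr14:16430839-16819156 on the minus strand and Rxrg chr1:167598384-167639623 on the plus strand. Drd1 lies at chr13:54051183-54055705 (minus), Drd2 at chr9:49340627-49408177 (plus), Ppp1r1b at chr11:98348404-98357796 (plus) and Rgs9 at chr11:109225355-109298129 (minus). Pde10a lies at chr17:8525372-8986648 (plus), Tac1 at chr6:7554879-7565834 (plus) and Penk at chr4:4133531-4138819 (minus). Ppp1r1b, Penk, Pde10a and Rarb overlap annotated genes on the opposite strand (Top2b and Gm48162 in the case of Rarb), and since no source used here states whether counting was stranded, reads shared with those genes cannot be told apart.

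Rarb and Rxrg were high in both striatal types and low in excitatory nuclei. Rarb, a retinoic acid receptor, reached a lowest, median and highest animal value of 1388, 1519 and 1856 CPM in the direct-pathway type and 307, 453 and 694 CPM in the indirect-pathway type. In excitatory nuclei it was 8.39 ± 1.61 CPM (SD, n = 9), so that no animal's value in either striatal type came near the excitatory range. The edgeR log2 difference from excitatory nuclei was 7.53 (SE 0.05, adjusted p = 4.18e-30) for the direct-pathway type and 5.77 (SE 0.06, adjusted p = 4.76e-51) for the indirect-pathway type. Rxrg, a retinoid X receptor that pairs with RARs, ranged from 97.5 to 125 CPM in the direct-pathway type and from 54.5 to 88.3 CPM in the indirect-pathway type. Its excitatory level was 0.87 ± 0.38 CPM, and the log2 differences were 7.02 (SE 0.09) and 6.29 (SE 0.14). Both genes were higher in the direct-pathway than in the indirect-pathway type in 9 of 9 animals, by 1.72 (SE 0.05) for Rarb and 0.67 for Rxrg on the log2 scale, the latter below the threshold of 1 that a call required.

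**Figure D1:**
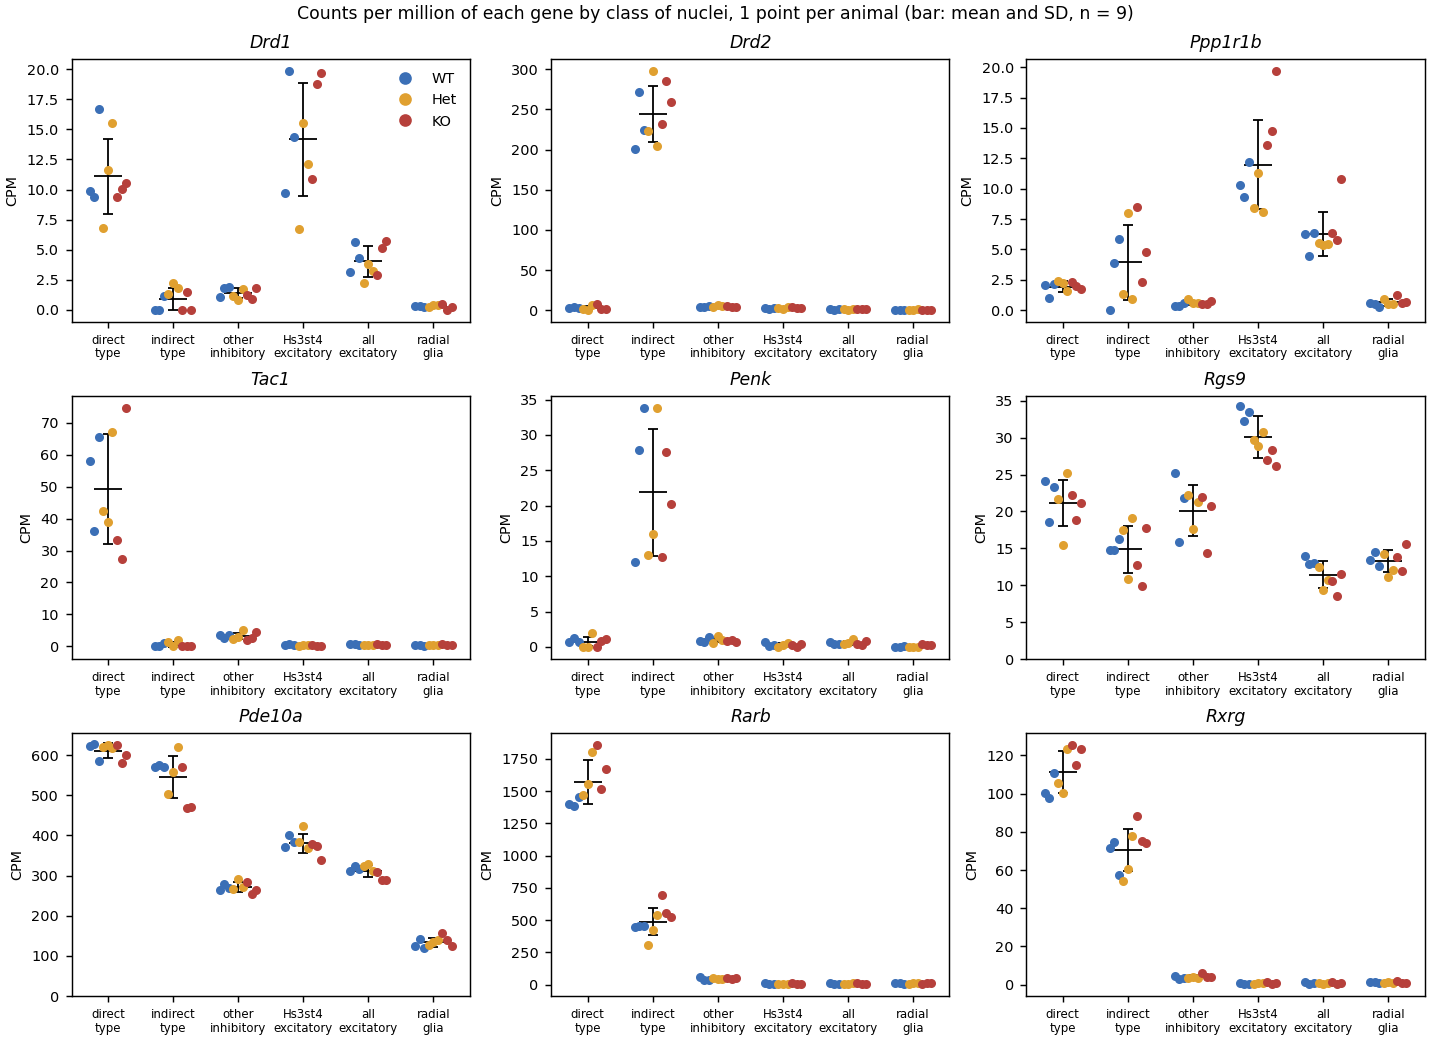
CPM of each of the 9 genes in each class, with 1 point per animal coloured by genotype, the mean and SD over 9 animals as black bars, and a linear axis of its own for each gene. Rarb and Rxrg stand high in both striatal types, Drd2 and Penk in the indirect-pathway type, Tac1 in the direct-pathway type, and Ppp1r1b and Drd1 reach 19.7 and 19.8 CPM in the Hs3st4 excitatory cluster.

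Outside the 2 striatal clusters Rarb fell off steeply. The next inhibitory cluster was cholinergic-like, at 131 ± 35.2 CPM, and a microglia/macrophage-like cluster of 692 nuclei had 113 ± 159 CPM, a spread wider than its mean. The direct-pathway type held 5.16% of nuclei but 75.9% ± 3.30 (SD over 9 animals) of all Rarb UMIs and 67.1% ± 5.07 of Rxrg UMIs. The indirect-pathway type, 1.67% of nuclei, held 7.14% of the Rarb UMIs and 12.9% of the Rxrg UMIs. In radial glia-like nuclei, shown for comparison, Rarb was at 9.41 ± 1.16 CPM, close to its excitatory level.

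Drd2 was concentrated in 1 cluster, while Drd1 was spread over more. Drd2 was at 201, 232 and 298 CPM (lowest, median and highest animal) in the indirect-pathway type against 3.23 ± 2.46 CPM in the direct-pathway type and 1.08 ± 0.35 CPM in excitatory nuclei. Every animal's indirect-pathway value lay above all values of the other classes. The log2 difference from excitatory nuclei was 7.78 (SE 0.10, edgeR adjusted p = 8.33e-49), and this cluster, 1.67% of nuclei, held 63.6% ± 7.23 of all Drd2 UMIs. The next clusters by Drd2 were an unnamed one led by Car10 and Samd3 (12.3 ± 4.67 CPM) and the cholinergic-like one (11.9 ± 4.93 CPM). Their order was not tested.

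Drd1 was low everywhere. It reached 6.84, 10.02 and 16.7 CPM (lowest, median and highest animal) in the direct-pathway type, from 315 UMIs in all, and 0.90 ± 0.91 CPM in the indirect-pathway type. Excitatory nuclei had 4.03 ± 1.27 CPM, below the direct-pathway type in 9 of 9 animals without overlap (log2 difference 1.38, SE 0.15, edgeR adjusted p = 3.12e-08). An excitatory cluster nevertheless had overlapping values. It was chosen, after the data were seen, as the excitatory cluster with the highest summed level of Fezf2, Hs3st4, Nfe2l3 and Bcl11b, holds 11655 nuclei, and is called the Hs3st4 cluster here after one of its leading genes. Drd1 there was 6.69, 14.3 and 19.8 CPM (lowest, median and highest animal), and the direct-pathway type was higher in 4 of 9 animals, with overlapping ranges (log2 difference −0.54, edgeR adjusted p = 0.00185, below the size a call required). The Hs3st4 cluster held 46.2% ± 9.27 of all 1287 Drd1 UMIs and the direct-pathway type 24.5% ± 5.89. Drd1 was next highest in an inhibitory cluster of the dorsal lateral ganglionic eminence, olfactory bulb type-like (7.26 ± 2.58 CPM). The direct-pathway type had 11.1 ± 3.12 CPM, and whether it differed from this cluster alone was not tested. The olfactory bulb type-like cluster held 97 of the 150 Drd1 UMIs of the other inhibitory clusters.

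The effectors behaved differently again. Ppp1r1b, which encodes DARPP-32, the phosphatase inhibitor that PKA switches on, was lower in the direct-pathway type than in excitatory nuclei in 9 of 9 animals without overlap (1.94 ± 0.43 against 6.25 ± 1.80 CPM, log2 difference −1.76, SE 0.16, edgeR adjusted p = 1.45e-09). With 53.5 UMIs in the direct-pathway type, it failed the filter on low counts in the genotype tests there. Since it entered through excitatory nuclei, where it was high, nothing is read from this call. In the indirect-pathway type it ranged from 0 to 8.51 CPM (mean 3.94 ± 3.08) and overlapped the excitatory range (log2 difference −0.87, edgeR adjusted p = 0.00873, below the size of a call). Its order over clusters was led by 3 excitatory ones, the Hs3st4 cluster at 11.95 ± 3.67 CPM and 2 others at 7.79 ± 2.14 and 5.03 ± 3.33 CPM. The order of these clusters was not tested. Excitatory nuclei, 28.9% of the total, held 79.8% ± 4.25 of the 1306 Ppp1r1b UMIs. Ppp1r1b was higher in the direct-pathway type than in the other inhibitory clusters (log2 difference 1.71), which had 0.58 CPM beside 0.63 CPM in radial glia-like nuclei. This difference is likewise a description, since it rests on 53.5 and 62 UMIs, and nothing is read from it.

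Pde10a, a phosphodiesterase that breaks down cAMP and cGMP in projection neurons of the striatum, was at 581, 619 and 627 CPM (lowest, median and highest animal) in the direct-pathway type and 469, 570 and 620 CPM in the indirect-pathway type. The direct-pathway type was higher in 8 of 9 animals, with overlap. Excitatory nuclei had 311 ± 14.3 CPM and lay below both types in every animal, but the log2 differences of 0.95 and 0.70 did not reach the size of a call. The gene was present throughout, with 134 ± 11.6 CPM in radial glia-like nuclei. Rgs9, which speeds GTP hydrolysis by inhibitory G proteins, was at 15.4, 21.7 and 25.2 CPM in the direct-pathway type, within the spread of the other inhibitory clusters (20.1 ± 3.45 CPM). Its highest clusters were the cholinergic-like one (47.9 ± 7.62 CPM) and the unnamed Car10 cluster (43.9 ± 4.03 CPM), followed by the Hs3st4 cluster at 30.1 ± 2.84 CPM, where every animal exceeded its own direct-pathway value. The order of the 2 clusters at the top was not tested.

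Each peptide gene was high in 1 striatal type. Tac1, the precursor of substance P, was at 27.4, 42.5 and 74.7 CPM (lowest, median and highest animal) in the direct-pathway type, against 0.48 ± 0.74 CPM in the indirect-pathway type, where it rested on 4 UMIs. The direct-pathway type stood above excitatory nuclei (0.49 ± 0.11 CPM) in every animal (log2 difference 6.62, SE 0.11, edgeR adjusted p = 4.33e-23) and held 70.0% ± 5.42 of the 1985 Tac1 UMIs. Penk, the precursor of the enkephalins, was at 11.95, 20.2 and 33.8 CPM in the indirect-pathway type and 0.73 ± 0.66 CPM in the direct-pathway type. Its log2 difference from excitatory nuclei was 5.22 (SE 0.21, edgeR adjusted p = 6.11e-27) in the former and 0.52 (95% interval −0.29 to 1.32, adjusted p = 0.299) in the latter. The indirect-pathway type held 35.9% ± 10.5 of the 554 Penk UMIs.

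In counts over the list, 6 of 9 genes were called between all inhibitory and excitatory nuclei, where 13.2% of all genes tested were called. Of these, 5 were higher (7.85% of all genes) and 1, Ppp1r1b, was lower (5.32% of all genes). A call required an edgeR adjusted p under 0.05 and a log2 difference beyond 1. For the direct-pathway type 6 of 9 were called against 15% of all genes, 5 higher (7.31%) and 1 lower (7.73%). For the indirect-pathway type it was 5 of 9 against 14.7%, 4 higher (7.02%) and Drd1 lower (7.7%). The lower calls of Ppp1r1b in the direct-pathway type (53.5 UMIs) and of Drd1 in the indirect-pathway type (8 UMIs) are a description, and nothing is read from them, since these genes failed the filter on low counts in the genotype tests within those types and entered here through excitatory nuclei, where they were high. The median log2 difference of the 9 was 1.94, 1.38 and 0.70 in these comparisons, where that of all genes was 0.00, 0.01 and −0.04. At an unadjusted p under 0.05 the counts were 9, 8 and 8, where those of all genes were 12553 of 20715, 9880 of 18498 and 8089 of 18835.

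**Figure D2:**
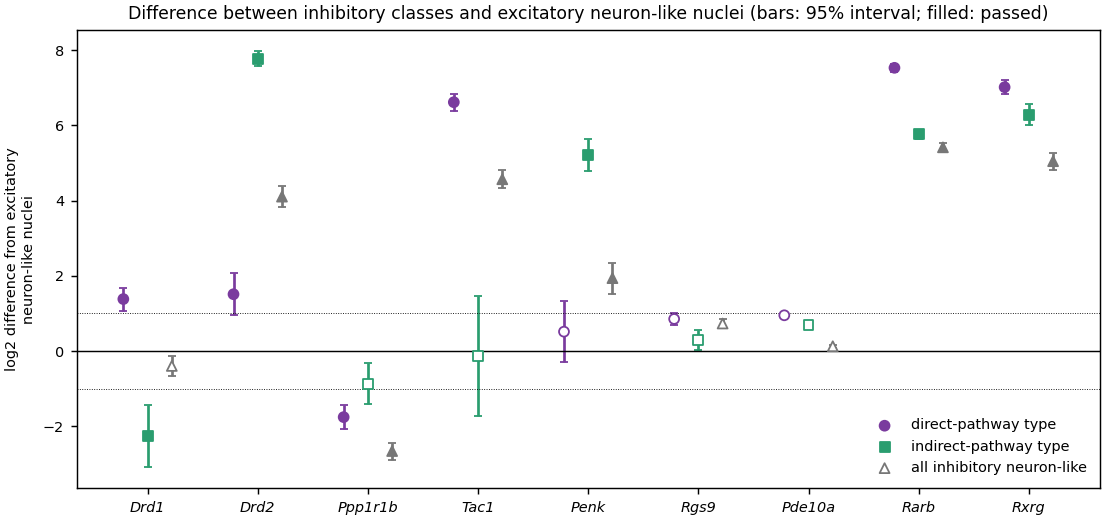
Log2 difference of each gene from excitatory nuclei in all inhibitory nuclei, the direct-pathway type and the indirect-pathway type, with 95% intervals from edgeR over 9 animals, filled where called. Rarb lies at 7.53 and 5.77 in the striatal types, while Drd1, Drd2, Tac1 and Penk differ between them and Ppp1r1b lies below 0 in all 3, called in all inhibitory nuclei and the direct-pathway type.

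Pairs of classes were then compared directly, a set of tests added after the data were seen. Several members had too few UMIs in one class to pass the filter on low counts in the genotype tests within it, and where such a member passed in a pair through the class in which it was high, it had to differ. In the indirect-pathway type these were Tac1 (4 UMIs), Drd1 (8) and Ppp1r1b (31), in the direct-pathway type Penk (23) and Ppp1r1b (53.5), and in the Hs3st4 cluster Tac1 (14), Penk (11) and Rxrg (26.3). The counts of members in these pairs are therefore given as a description, beside the shares of all genes, and nothing is read from them. Between the direct-pathway and the indirect-pathway type 5 of 9 genes were called, where 7.54% of all genes were (3.58% higher, 3.97% lower). Tac1 (log2 difference 6.56, SE 0.25), Drd1 (3.52, SE 0.33) and Rarb (1.72) were higher in the direct-pathway type, and Drd2 (−6.37, SE 0.14) and Penk (−4.70, SE 0.24) were lower. Rxrg (0.67), Rgs9 (0.51), Pde10a (0.19) and Ppp1r1b (−0.93, edgeR adjusted p = 0.0639) were not called. 

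Against the other inhibitory clusters, the direct-pathway type was higher in 6 of the 8 genes tested, where 10% of all genes were called (3.72% higher, 6.31% lower). These were Rarb (log2 difference 5.11), Rxrg (4.86), Tac1 (3.95), Drd1 (3.00), Ppp1r1b (1.71) and Pde10a (1.21). The indirect-pathway type also had 6 of 8 called, where 8.8% of all genes were (3.33% higher, 5.47% lower). Drd2 (5.73), Penk (4.56), Rxrg (4.15), Rarb (3.36) and Ppp1r1b (2.61) were higher and Tac1 (−2.78) was lower. Rgs9 was called in neither, at 0.13 and −0.41.

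Against the Hs3st4 cluster the direct-pathway type had 4 of 8 genes called, where 17.1% of all genes were (7.87% higher, 9.27% lower). Rarb (7.92), Rxrg (7.17) and Tac1 (6.91) were higher and Ppp1r1b (−2.80) was lower. The indirect-pathway type had 7 of 8 called, where 16.9% of all genes were (8.13% higher, 8.8% lower). Drd2 (6.44), Rxrg (6.43), Rarb (6.18) and Penk (5.95) were higher, and Drd1 (−4.12), Ppp1r1b (−1.89) and Rgs9 (−1.20) were lower. Pde10a was called in neither, at 0.55 and 0.33.

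Shares of nuclei with a UMI of each gene were compared after each nucleus was thinned to 1500 UMIs, which left out 1679 nuclei of the direct-pathway type, 633 of the indirect-pathway type, 730 of the Hs3st4 cluster and 5377 radial glia-like nuclei. Median depths before thinning were 2583, 2388, 3458 and 2456 UMIs. Rarb was found in 62.4% of direct-pathway type nuclei (Wilson 95% interval 61.3 to 63.4, 64.3% unthinned) and 28.8% of indirect-pathway type nuclei (27.1 to 30.6, 33.4% unthinned), against 1.15% of radial glia-like nuclei (2.85% unthinned). Pde10a was found in 54.3% and 48.8% of them (67.9% and 61.5% unthinned), against 16.8% of radial glia-like nuclei (26.0% unthinned). Rxrg was found in 12.6% and 8.79% (19.8% and 13.5% unthinned), against 0.148% in radial glia-like nuclei. Intervals here cover counting error only.

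Drd2 had a UMI in 24.4% of indirect-pathway type nuclei (22.8 to 26.1, 32.6% unthinned) and 0.347% of direct-pathway type nuclei, against 0.0575% of radial glia-like nuclei. Tac1 had one in 5.07% of direct-pathway type nuclei (7.47% unthinned), against 0.0657% of radial glia-like nuclei. Penk had one in 3.30% of indirect-pathway type nuclei (4.94% unthinned), against 0.0164% of radial glia-like nuclei. Drd1 was found in 1.48% of direct-pathway type nuclei (1.25 to 1.77, 2.89% unthinned) and 2.00% of the Hs3st4 cluster (1.76 to 2.28, 4.80% unthinned), against 0.0411% of radial glia-like nuclei. Ppp1r1b was found in 1.76% of the Hs3st4 cluster (3.94% unthinned) and 0.227% of the direct-pathway type, against 0.0986% of radial glia-like nuclei. Rgs9 shares of 2.89% in the direct-pathway type and 2.03% in the indirect-pathway type stood beside 1.88% in radial glia-like nuclei. Radial glia-like nuclei are not a floor for Rgs9. Their clusters had 16.1 ± 1.56 and 8.42 ± 1.94 CPM, where an excitatory cluster led by Adamtsl3 had 1.47 ± 0.46 CPM.

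Whether the genes were found in the same nuclei was described without splitting them by subtype, over 42701 inhibitory neuron-like nuclei thinned to 1500 UMIs. A UMI of both Rarb and Rxrg was found in 1017 nuclei, where independent detection would give 247, a log2 odds ratio of 3.73 ± 0.28 (SD over 9 animals). Tac1 with Rarb gave 374 against 97.2 expected (3.36 ± 0.59), and Drd1 with Rarb 113 against 33.2 (2.81 ± 0.41). Drd2 with Rarb was weaker, at 329 against 141 (1.72 ± 0.25), as was Penk with Rarb, at 63 against 24.9 (1.92 ± 0.55). Drd2 and Tac1 shared 1 nucleus where 10.9 were expected (−1.03 ± 1.04). A small constant was added to each count of an animal before its ratio was taken. For pairs as sparse as Drd2 with Tac1 this weakens the mean, so the counts are the better guide. Since subtypes that differ in detection were pooled, these odds ratios also hold the differences between clusters given above. They do not show co-expression within a subtype. Of the 36 pairs, 23 had an expected count of at least 5, a limit set after the data were seen, and the others were too sparse to read.

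**Figure D3:**
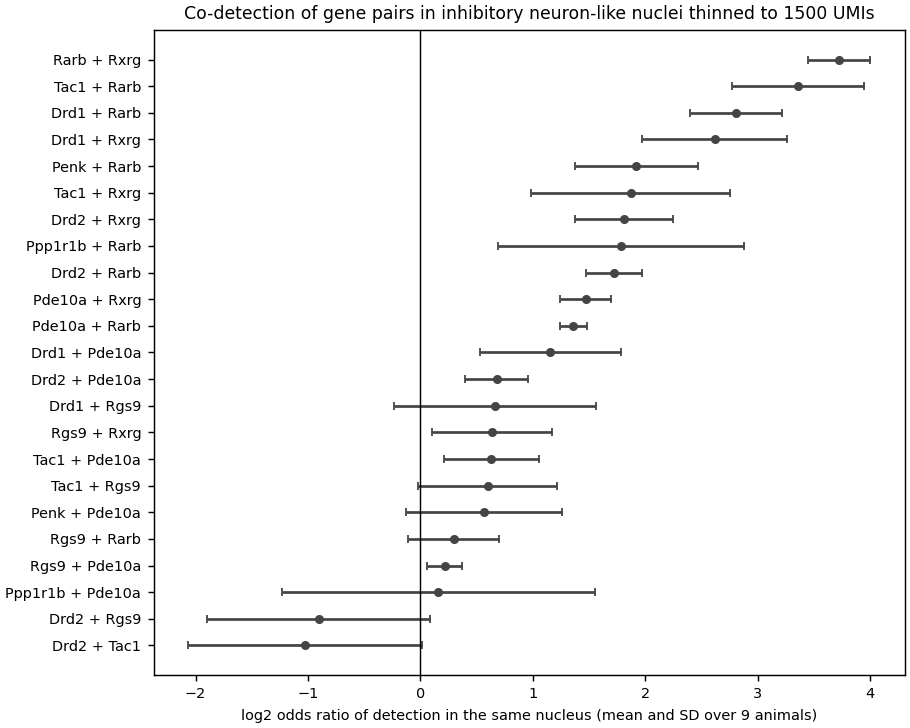
Mean log2 odds ratio with its SD over 9 animals for the 23 pairs of genes with an expected count of at least 5, in inhibitory neuron-like nuclei thinned to 1500 UMIs. Rarb with Rxrg lies at the top at 3.73, and Drd2 with Tac1 lies below 0.

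The genes whose level ran most like each member over the 27 clusters of at least 200 nuclei were found by Pearson correlation of log2(CPM + 1) among 6992 genes, as a description over clusters that share animals and libraries. Rarb was most like Rxrg (r = 0.87), Gm14133 (0.84) and Pde7b (0.81). Among the genes most like Rxrg were Rarb and Oprm1 (0.86). Penk was most like Drd2 (0.86), Rxrg (0.67) and Gng7 (0.66), while Drd2 was most like Myo3a (0.78), Six3 (0.75) and Htr1f (0.74). Tac1 was most like Oprm1 (0.78), Stra6l and Vstm2a (both 0.77). Ppp1r1b was most like Med13l (0.86), Homer1 (0.81) and Kcnq3 (0.76), and Pde10a like Paqr3 (0.86), Bzw2 (0.83) and Rnf138 (0.82). Rgs9 was most like Ccdc85a (0.77), 9330182L06Rik (0.76) and Rap1gap2 (0.74), and Drd1 had the weakest likeness, to St3gal1 (0.68), Nin (0.62) and Sybu (0.60).

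Other genes of the same pathways were counted over 6 lists of 92 genes, to be read against the shares of all genes called in the same comparisons (7.31% higher and 7.73% lower in the direct-pathway type, 7.02% and 7.7% in the indirect-pathway type). Fewer of these genes passed the filter on low counts within a striatal type. For dopamine handling 4 passed within the direct-pathway and 3 within the indirect-pathway type. For retinoid synthesis, transport and breakdown these counts were 6 and 2. A gene that entered only through the class where it was high had to differ, so the counts are a description. Of the opioid, tachykinin and adenosine genes, 7 of 11 tested were higher than in excitatory nuclei in the direct-pathway type and 7 of 11 in the indirect-pathway type, and none was lower. Pdyn, Chrm4, Adora2a, Gpr6 and Gpr52 of this list were also markers used to name the striatal types. Pdyn was among the genes higher in the direct-pathway type and Adora2a among those in the indirect-pathway type. Their calls are not independent of the names. Oprm1, the mu opioid receptor, was at 204 and 25.6 CPM in these types against 4.95 CPM in excitatory nuclei (log2 difference 5.36 in the direct-pathway type). Of the phosphodiesterase and RGS genes, 5 of 17 were higher and 3 lower in the direct-pathway type, and 7 of 17 higher in the indirect-pathway type. Pde7b, a cAMP phosphodiesterase, was at 196 and 262 CPM against 8.86 CPM (4.45 and 4.81).

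Of the 10 retinoid receptors and coregulators other than Rarb and Rxrg, 1 was lower and none higher in the direct-pathway type (Rarg), and 1 was higher in the indirect-pathway type (Rara, log2 difference 1.74), again near the shares of all genes. Of the genes of retinoid synthesis, transport and breakdown, 5 of 11 were higher and 1 lower in the direct-pathway type and 3 of 11 higher in the indirect-pathway type. Cyp26b1, which breaks down retinoic acid, was at 89.0 ± 29.6 CPM in the indirect-pathway type, 1.56 CPM in the direct-pathway type and 3.37 CPM in excitatory nuclei (log2 difference 4.62 in the indirect-pathway type). Of the cAMP arm, 1 of 22 genes was higher and 1 lower in the direct-pathway type, and 2 were higher and 2 lower in the indirect-pathway type, counts near the shares of all genes. Gnal, the G protein subunit that links Drd1 to cAMP, was higher in both (1.42 and 1.56), and Gng7, another G protein subunit, was higher in the indirect-pathway type (1.95). Arpp21, a phosphoprotein that PKA acts on, was lower in both (−1.30 in the direct-pathway type), and Adcy8, an adenylyl cyclase, was lower in the indirect-pathway type (−1.68). Of dopamine handling, 2 of 7 were higher and 1 lower in the direct-pathway type and 3 of 7 higher in the indirect-pathway type, with Slc18a2, the vesicular monoamine transporter, higher by 4.34 in the former and Maoa, a monoamine oxidase that breaks down dopamine, lower there (log2 difference −1.34).

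Against the other inhibitory clusters the same lists were read against 3.72% of all genes higher and 6.31% lower in the direct-pathway type and 3.33% and 5.47% in the indirect-pathway type. In the direct-pathway type 4 of 9 opioid, tachykinin and adenosine genes were higher and 3 lower, 4 of 17 phosphodiesterase and RGS genes were higher and 5 lower, and 3 of 10 genes of retinoid synthesis, transport and breakdown were higher and 1 lower. In the indirect-pathway type these counts were 4 of 10 higher and 1 lower, 3 of 17 higher and 2 lower, and 2 of 9 higher and 1 lower. Markers used for naming were again among the higher genes, Pdyn in the direct-pathway type and Adora2a in the indirect-pathway type. Of the cAMP arm, 2 of 22 genes were higher in the direct-pathway type, and 3 were higher and 1 lower in the indirect-pathway type, with Gnal among those higher in both. Of the retinoid receptors and coregulators, 0 of 10 were called in the direct-pathway type and 1 of 10, Rarg, was higher in the indirect-pathway type. Dopamine handling had none higher in either type. Lower were Th and Ddc in the direct-pathway type (of 6 tested) and Th and Slc18a2 in the indirect-pathway type (of 7 tested). The limit of low counts given above for these lists holds for these calls too.

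Genotype was then compared within each class on counts summed per animal, where a call required an edgeR adjusted p under 0.05 and a log2 change beyond 0.2. No member was called in KO against WT in any class, although with the replicate number as a block Rgs9 was called in excitatory nuclei (edgeR adjusted p = 0.0269) and Ppp1r1b in the Hs3st4 cluster (adjusted p = 0.0229). Without the block the counts were 0 of 9 tested in all inhibitory nuclei (0.0211% of all genes called), 0 of 7 in the direct-pathway type (0% of all genes), 0 of 6 in the indirect-pathway type (0.222%), 0 of 9 in excitatory nuclei (1.05%), 0 of 9 in all nuclei (0%) and 0 of 6 in the Hs3st4 cluster (1.39%). At an unadjusted p under 0.05 edgeR gave 2, 2, 1, 2, 1 and 2 members in these classes, where it gave 1076 of 18926, 604 of 12744, 655 of 9019, 2456 of 19077, 1459 of 25650 and 1720 of 13491 of all genes. DESeq2 also called 0 members, where it called 21, 0, 19, 368, 27 and 163 of all genes, and gave 2, 2, 1, 2, 1 and 1 members at an unadjusted p under 0.05, where it gave 648, 242, 290, 1759, 1104 and 987 of all genes. In Het against WT both tools called 0 members in each class (0% of all genes by edgeR), and at an unadjusted p under 0.05 each gave 1, Rarb, in the direct-pathway type and 1, Rgs9, in excitatory nuclei, where edgeR gave 326 of 12744 and 651 of 19077 genes. Run 2 alone gave 0 called members in KO, where 5, 0, 15, 179, 0 and 138 of all genes were called in these classes. Run 1 alone called 0 genes of any kind in KO in 5 of the 6 classes and 12 in the Hs3st4 cluster, so its 0 called members carry no information in those 5. Over both runs, edgeR without the block also called 0 genes of any kind in KO in the direct-pathway type and in all nuclei, and in Het in every class. The 0 called members carry no information there either, and little in all inhibitory nuclei of KO, where 0.0211% of all genes were called. The Het and KO comparisons share the WT animals.

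The median log2 change of the members in KO was −0.01 in all inhibitory nuclei, −0.06 in the direct-pathway type, 0.02 in the indirect-pathway type, 0.15 in excitatory nuclei and 0.06 in the Hs3st4 cluster, where that of all genes was −0.01, −0.00, 0.01, −0.01 and −0.01. In sums over more than 1 subtype, such as all inhibitory or all excitatory nuclei, fewer cells of a type and less RNA per cell cannot be told apart.

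Rarb in both striatal types and Rxrg in the direct-pathway type had an unadjusted p under 0.05 in KO, with no call after adjustment. Rarb in the direct-pathway type was 1399, 1388 and 1453 CPM in WT, 1473, 1555 and 1804 CPM in Het and 1856, 1519 and 1672 CPM in KO. All 3 KO and all 3 Het animals lay above all 3 WT animals, and Het and KO overlapped. How many of all genes separated in this way was not counted. With 3 animals against 3, the smallest p possible in a two-sided exact permutation test is 0.1. Separations of genotypes, here and below, are therefore a description, and nothing is read from them alone. The log2 change was 0.28 in KO (SE 0.10, 95% interval 0.08 to 0.49, unadjusted p = 0.00925, edgeR adjusted p = 1.00) and 0.21 in Het (unadjusted p = 0.0429). In the indirect-pathway type Rarb was 443, 451 and 453 CPM in WT, 307, 426 and 542 CPM in Het and 694, 556 and 526 CPM in KO. KO again lay above WT without overlap, while Het spread to both sides of WT. The KO change there was 0.42 (SE 0.15, 95% interval 0.10 to 0.73, unadjusted p = 0.0118, edgeR adjusted p = 0.469). Without KO 1 these changes were 0.20 and 0.29, with unadjusted p of 0.0545 and 0.0552.

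Rxrg in the direct-pathway type was 100, 97.5 and 111 CPM in WT, 106, 100 and 124 CPM in Het and 125, 115 and 124 CPM in KO. The 3 KO animals lay above the 3 WT animals (log2 change 0.27, SE 0.10, 95% interval 0.06 to 0.47, unadjusted p = 0.0153), and Het overlapped both. In the indirect-pathway type it was 71.7, 74.6 and 57.4 CPM in WT and 88.3, 75.4 and 74.2 CPM in KO, overlapping (0.22, 95% interval −0.13 to 0.57). With run 1 alone the Rarb change in KO was 0.12 in the direct-pathway type and 0.28 in the indirect-pathway type, and with run 2 alone 0.32 and 0.46.

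**Figure D4:**
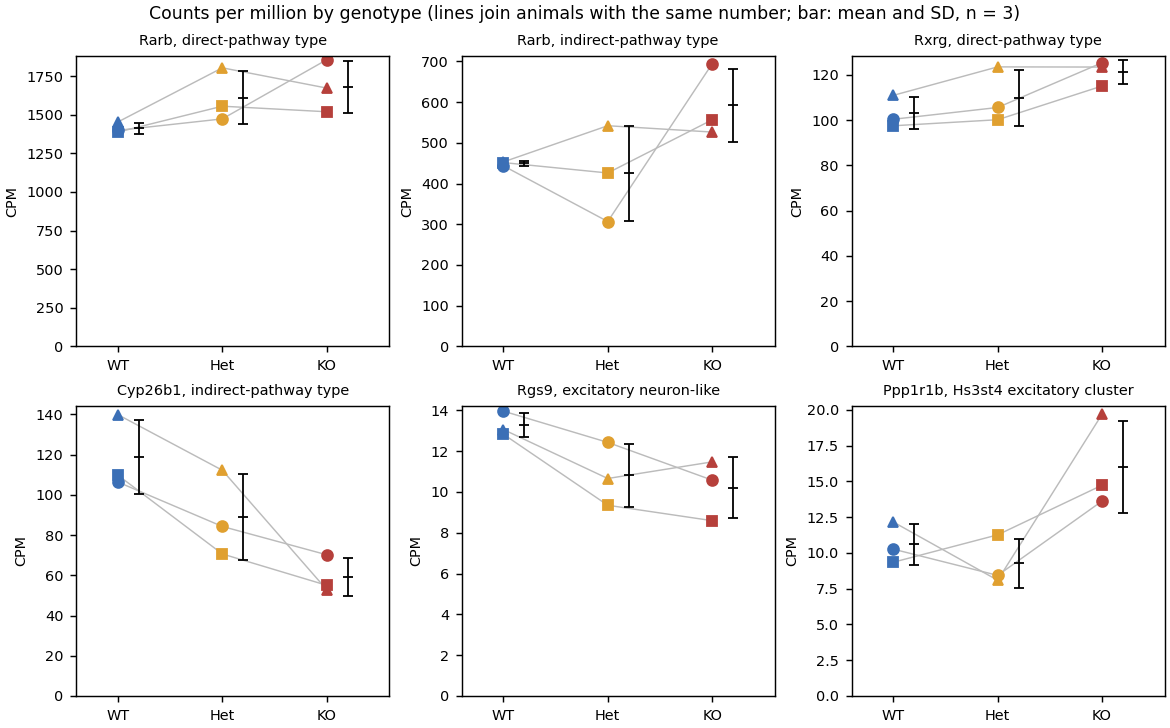
CPM per animal by genotype for 5 pairs of a member and a class, chosen after their values were seen, and for Cyp26b1 in the indirect-pathway type, with grey lines joining animals of the same replicate number and bars for the mean and SD of 3 animals. Rarb in the direct-pathway type lies at 1388 to 1453 CPM in WT and 1519 to 1856 CPM in KO, and Ppp1r1b in the Hs3st4 cluster at 9.35 to 12.2 CPM in WT and 13.6 to 19.7 CPM in KO.

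In excitatory nuclei the members with an unadjusted p under 0.05 in KO were Rgs9 and Ppp1r1b. Rgs9 was 13.96, 12.8 and 13.1 CPM in WT, 12.4, 9.35 and 10.7 CPM in Het and 10.6, 8.59 and 11.5 CPM in KO. Every Het and KO animal lay below every WT animal. The KO change was −0.36 (SE 0.12, 95% interval −0.60 to −0.11, unadjusted p = 0.0087, edgeR adjusted p = 0.189) and the Het change −0.29 (unadjusted p = 0.0274). In the Hs3st4 cluster Rgs9 was 34.3, 32.2 and 33.4 CPM in WT, 29.8, 28.9 and 30.7 CPM in Het and 26.9, 28.3 and 26.1 CPM in KO. The 3 groups did not overlap there (KO change −0.29, SE 0.10, edgeR adjusted p = 0.198), which is likewise a description. In the direct-pathway type Rgs9 was 24.1, 18.6 and 23.3 CPM in WT and 22.3, 18.8 and 21.1 CPM in KO, with overlap (−0.06, 95% interval −0.44 to 0.31).

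Ppp1r1b in the Hs3st4 cluster was 10.3, 9.35 and 12.2 CPM in WT, 8.43, 11.3 and 8.09 CPM in Het and 13.6, 14.7 and 19.7 CPM in KO. All KO animals lay above all others, with a KO change of 0.65 (SE 0.18, 95% interval 0.26 to 1.03, unadjusted p = 0.00288, edgeR adjusted p = 0.108). Over all excitatory nuclei it was 6.23, 4.47 and 6.31 CPM in WT and 6.35, 5.78 and 10.8 CPM in KO, with overlap (0.48, SE 0.20, edgeR adjusted p = 0.315). Samples of the same replicate number deviated together, and with that number as a block 1 member was called in each of these classes. Rgs9 was called in excitatory nuclei (log2 change −0.36, SE 0.10, edgeR adjusted p = 0.0269, where 6.43% of all genes were called) and Ppp1r1b in the Hs3st4 cluster (0.63, SE 0.16, adjusted p = 0.0229, where 5.22% of all genes were called). With the block, adjusted p for Rarb was 0.305 in the direct-pathway type and 0.285 in the indirect-pathway type.

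For the receptors, the peptides and Pde10a the intervals of the KO change included 0. Drd1 in the direct-pathway type ranged from 9.39 to 16.7 CPM in WT, 6.84 to 15.5 CPM in Het and 9.38 to 10.6 CPM in KO (log2 change −0.19, 95% interval −0.78 to 0.40). Drd2 in the indirect-pathway type ranged from 201 to 271 CPM in WT, 204 to 298 CPM in Het and 232 to 286 CPM in KO (0.19, −0.11 to 0.50). For both receptors all 3 groups overlapped. Tac1 in the direct-pathway type was 58.0, 36.0 and 65.6 CPM in WT and 33.4, 27.4 and 74.7 CPM in KO (−0.17, −0.80 to 0.47), and Penk in the indirect-pathway type 11.95, 27.8 and 33.8 CPM in WT and 12.8, 27.5 and 20.2 CPM in KO (−0.15, −0.89 to 0.59). Pde10a had the narrowest interval of these, with 622, 627 and 586 CPM in WT and 626, 581 and 599 CPM in KO in the direct-pathway type (0.01, −0.15 to 0.17).

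Whether the KO change differed between classes was tested as an interaction, added after the data were seen. No member passed an edgeR adjusted p of 0.05 between inhibitory and excitatory nuclei (0.0917% of all genes did), between the direct-pathway and the indirect-pathway type (0.0597%) or between the direct-pathway type and the Hs3st4 cluster (0.185%). The lowest adjusted p of a member was 0.770, 0.897 and 0.782. In Het no gene passed in any of the 3 (0%). For Rgs9 the KO change was 0.27 higher on the log2 scale in inhibitory than in excitatory nuclei (unadjusted p = 0.0485) and the Het change 0.29 higher (unadjusted p = 0.0364). For Rarb the Het change was 0.29 higher in the direct-pathway than in the indirect-pathway type (unadjusted p = 0.0146, edgeR adjusted p = 1.00). These were the only unadjusted p under 0.05 among the members in the interaction tests run.

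The number of striatal nuclei was set beside these levels. The direct-pathway type made up, as mean ± SD over 3 animals, 18.7% ± 0.94 of inhibitory neuron-like nuclei in WT, 18.2% ± 1.71 in the Het group and 18.3% ± 2.72 in the KO group (two-sided exact permutation p = 0.8 and 0.9 against WT). The indirect-pathway type made up 6.14% ± 0.39, 5.86% ± 0.60 and 5.76% ± 1.04 (exact permutation p = 0.6 and 0.7). With 3 animals against 3 the smallest p possible is 0.1.

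Among the other genes of the 6 lists, 1 of 55 tested was called in KO in the indirect-pathway type (0.222% of all genes), 0 of 65 in the direct-pathway type (0%), 0 of 79 in all inhibitory nuclei (0.0211%), 5 of 76 in excitatory nuclei (1.05%) and 2 of 57 in the Hs3st4 cluster (1.39%). With the replicate block these counts were 1 of 56 (0.467% of all genes), 0 of 65 (0.0608%), 2 of 80 (0.827%), 12 of 78 (6.43% of all genes) and 11 of 58 (5.22%). In Het 0 were called in every class by edgeR. Cyp26b1 in the indirect-pathway type was 106, 110 and 140 CPM in WT, 84.3, 70.6 and 112 CPM in Het and 70.2, 55.0 and 52.9 CPM in KO. KO lay below WT without overlap, and Het reached into the WT range (KO change −1.01, SE 0.18, edgeR adjusted p = 0.0289). Leaving out WT 2 gave an adjusted p of 0.0545, and leaving out WT 3, KO 2 or KO 3 gave 0.148, 0.163 or 0.144, while run 2 alone gave 0.21 and run 1 alone 0.972. The log2 change was −1.05, −0.89, −0.98 and −0.93 without these animals in the same order, −0.94 with run 2 alone and −1.21 with run 1 alone. The adjusted p was 0.00397 with the replicate block in edgeR and 0.00697 with DESeq2.

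In excitatory nuclei of KO, Pde1c, a phosphodiesterase that calmodulin activates, was higher (log2 change 0.43, edgeR adjusted p = 0.0165). Lower were Prkar1b (−0.46, adjusted p = 0.0177), a regulatory subunit of PKA, Gnal (−0.51, adjusted p = 0.0359), Rgs7 (−0.45, adjusted p = 0.0285), which belongs to the same RGS family as Rgs9, and Nrip1 (−0.61, adjusted p = 0.00875), a corepressor of nuclear receptors. In the Hs3st4 cluster Pde1c (0.69, adjusted p = 0.000484) and Pde7b (0.97, adjusted p = 0.0184) were higher. The calls of Nrip1 in excitatory nuclei and of Pde1c in the Hs3st4 cluster held whichever animal was left out. The others were lost without at least 1 animal, with an adjusted p of up to 0.146 for Gnal (without KO 2), 0.144 for Rgs7 (without KO 2), 0.0919 for Prkar1b (without KO 2), 0.0931 for Pde7b (without KO 2) and 0.0775 for Pde1c in excitatory nuclei (without WT 1). For Gnal these animals were WT 1, WT 2, WT 3, Het 3, KO 1 and KO 2, for Rgs7 WT 1, WT 2, WT 3, KO 2 and KO 3, for Prkar1b WT 1, WT 2, WT 3, KO 1 and KO 2, for Pde7b WT 1, WT 2 and KO 2, and for Pde1c WT 1 and WT 2. With run 2 alone Gnal was not called (adjusted p = 0.0556) and the other 6 of these calls held, while with run 1 alone, which holds fewer nuclei, only that of Pde1c in the Hs3st4 cluster did. With the replicate block all these calls held, where 6.43% and 5.22% of all genes were called in these classes. In excitatory nuclei the edgeR adjusted p was 0.000393 for Gnal, 3.51e-05 for Rgs7, 0.000503 for Prkar1b and 5.64e-05 for Pde1c and Nrip1. In the Hs3st4 cluster it was 2.02e-07 for Pde1c and 0.000678 for Pde7b.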

How the data were processed

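Single-nucleus RNA was measured with ScaleBio combinatorial barcoding in 9 forebrains, each in 2 runs. The authors demultiplexed, mapped to mm10 and counted with ScaleRna v1.4 and separated nuclei from background barcodes with CellFinder of v1.5, per the study's methods. The submitters' processing notes also name DESeq2 1.38.3, Scanpy 1.12.0 and Seurat 4.3.0. The deposited values are expected counts of UMIs (6.7% to 8.71% not whole), which were summed over both runs and rounded before count tests. Groups came from titles. The members and gene lists were chosen with earlier results of these data known.

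Limits were set at 800 to 6000 UMIs, 300 to 3000 genes, no more than 1% mitochondrial UMIs and, for the log of genes over the log of UMIs, 0.9 or more, and 200774 nuclei passed them all. The 5% of all deposited barcodes with the highest Scrublet score in each library, an assumed rate, were also removed, and since many of these lay outside the limits, 194387 nuclei remained. Clustering used Scanpy 1.11.5 with 3000 variable genes (no member, pathway, Myt1l or sex-linked gene), 50 components, 20 neighbours and Leiden resolution 1. A name required at least 3 markers of its list. Summed counts were tested with edgeR 4.0.16 (quasi-likelihood, TMM, filterByExpr, Benjamini-Hochberg over all genes tested) on R 4.3.3, by genotype, or by class with animal as a block. DESeq2 1.42.0 was an alternative to edgeR. The tests were run on simulated data first. CPM were computed from the summed counts. Shares were compared with exact permutation tests over animals.

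Named genes were the 9 members, Myt1l, every pathway gene called between genotypes, up to 3 called genes per list and class comparison at 20 CPM or more, and the 3 genes most alike in clusters (at 50 CPM or more). Some genes that this rule names are not reported here. Replicate numbers were checked as a pairing. Same-numbered animals had correlations of deviations from their group means of 0.249 to 0.707 in inhibitory nuclei (median 0.585). Every same-number pair was above 0.1 in 4 classes. The median between different numbers was −0.256. Deviations from a group mean cancel out within the group, so positive values for same numbers force lower ones for different numbers. The negative median is therefore not a separate contrast. No source used here states what the number marks. The animals of a genotype are biological replicates per the study and differed by more than sampling noise.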

Additional observations from a re-analysis of the deposited data

How the results depend on the processing

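Of 2902 values recomputed under an alternative, 2856 kept their side of the threshold or, with no test, moved by less than the spread over animals. A count of called members that changed little, such as from 5 to 6, was also taken as kept. Where hardly any gene was called, such as in Het against WT, keeping that side says little. Among the 2856 values, 156 that were not called changed sign, with a value within 2 SE of 0. The cause of the changes below was not tested. Reversed were the KO change of Rarb with run 1 alone, at −0.0206 in inhibitory nuclei and −0.0699 in all nuclei, and the difference of Pde10a between inhibitory and excitatory nuclei under a gate on marker UMIs, at −0.0510. Members called in KO rose from 0 to 1 in excitatory nuclei and in the Hs3st4 cluster without a filter on low counts (Ppp1r1b in both) and with the replicate block (Rgs9 and Ppp1r1b, respectively). Under the block the KO calls over all genes rose from 4 to 161 in inhibitory nuclei, 0 to 8 in the direct-pathway type, 20 to 44 in the indirect-pathway type, 200 to 1263 in excitatory nuclei, 0 to 155 in all nuclei and 187 to 726 in the Hs3st4 cluster, and the block changed no other member's call. Run 1 alone held 37966 of the nuclei and gave 3 calls of 6 tested between the striatal types (524 of 7290 over all genes) and 4 of 5 between the indirect-pathway type and the Hs3st4 cluster (1215 of 7461 over all genes). Leaving out each animal in turn gave 0 to 0 members called by genotype in every class, and 6 to 6, 6 to 6 and 5 to 6 called against excitatory nuclei in inhibitory nuclei, the direct-pathway and the indirect-pathway type. The log2 odds of the share of the direct-pathway type ranged from −0.14 to 0.02 in Het and −0.17 to 0.09 in KO when each animal was left out, and those of the indirect-pathway type from −0.14 to 0.01 and −0.24 to 0.04. The Myt1l call in excitatory nuclei was lost without WT 1, WT 3, Het 3, KO 1 or KO 2. The log2 odds ratio of finding both genes moved to 1.46 for Drd1 with Rxrg at 1000 UMIs. Without thinning it was 0.13 for Drd2 with Rgs9, 1.09 for Drd2 with Pde10a, 1.27 for Tac1 with Rgs9, 1.71 for Tac1 with Pde10a, 1.29 for Penk with Pde10a, 0.90 for Rgs9 with Pde10a, 0.78 for Rgs9 with Rarb, 1.72 for Pde10a with Rarb, 2.23 for Pde10a with Rxrg and 4.08 for Rarb with Rxrg. Few UMIs (554 of Penk, 1287 of Drd1 and 1306 of Ppp1r1b) limit the genotype comparisons of these genes.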
